A study of Capra hircus with 21 samples.

Results

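GDF3 and BMP4 are 2 secreted ligands of the TGF-beta family. They were taken by gene symbol from a table of RNA levels in the goat (Capra hircus), where each symbol matched 1 of 19040 genes, and their levels were followed through all 21 libraries. The libraries were made from total RNA of oocytes and of 2-cell, 4-cell, 8-cell and 16-cell embryos, morulae and blastocysts, with 3 libraries lettered A to C at each of the 7 stages. Oocytes had matured in the animal and embryos had developed there. The labels name no treatment, breed, animal age or number of embryos per library, and they do not say whether stage mates came from different animals. The p-values therefore cover only the variation among these libraries, part or all of which may be technical.

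TGF-beta family ligands are made as precursors, cut by proprotein convertases and secreted as dimers. They bring together type I and type II receptor kinases on the receiving cell, which phosphorylate SMAD proteins that then enter the nucleus with SMAD4. GDF3 belongs to the branch that includes Nodal and Vg1, signals in mouse and frog through activin-type receptors and SMAD2 and SMAD3, and is a known marker of pluripotent cells in mouse and human. It has also been described as an inhibitor of BMP ligands. BMP4 signals through BMP receptors and SMAD1, SMAD5 and SMAD9, induces ID genes, and in the mouse is needed for mesoderm and germ cell formation.

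Levels are given as RPKM, reads per kilobase of gene, scaled to library size. In these files the length is the distance from start to stop with its introns, and every value carries an added 0.01, so that 0.01 stands for no read. GDF3 spans 6256 bp on chromosome 5 (99974650 to 99980906, plus strand) and BMP4 spans 4299 bp on chromosome 10 (36681304 to 36685603, plus strand), in the coordinates of the table, whose genome build is not given in the sources used here. Both are listed as protein coding. Between 8.47 M reads, in morula B, and 26.7 M reads, in 2-cell C, fell in the listed genes of a library, and 3 reads amounted to 0.0072 to 0.0200 RPKM for GDF3 and 0.0105 to 0.0291 RPKM for BMP4. Below these floors, which cover counting error only, a level cannot be told from 0.

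Calls for the 2 ligands went in opposite directions between the 8-cell and the blastocyst stage. BMP4 rose at the 16-cell stage to 6.82 ± 1.84 RPKM, against 0.846 ± 0.182 RPKM in 8-cell embryos (mean ± SD, n = 3 libraries here and at every other stage), stayed high in morulae and fell in blastocysts to 0.238 ± 0.104 RPKM. GDF3 fell in morulae to 0.215 ± 0.186 RPKM, against 3.97 ± 0.60 RPKM in 8-cell embryos, and rose in blastocysts to 4.95 ± 4.11 RPKM.

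**Figure D1:**
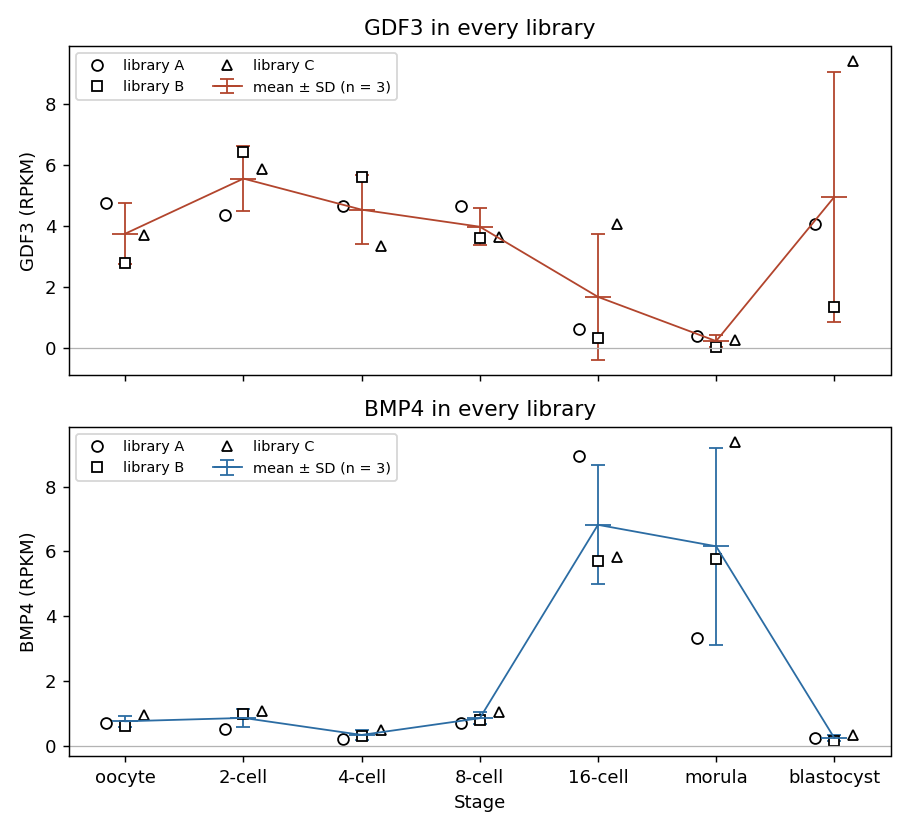
RPKM (linear axis) of GDF3 (upper panel) and BMP4 (lower panel) by stage. Open symbols are the single libraries A, B and C, and the line with bars is the mean ± SD of 3 libraries. GDF3 is at 0.372 RPKM or less in the 3 morula libraries and at 0.319 RPKM in 16-cell B, and BMP4 is at 3.33 RPKM or more in the 6 libraries of 16-cell embryos and morulae and at 1.06 RPKM or less in the other 15.

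GDF3 was read at 4.76, 2.77 and 3.71 RPKM in oocytes A, B and C, at 4.36, 6.44 and 5.86 RPKM in 2-cell embryos, at 4.64, 5.61 and 3.35 RPKM in 4-cell embryos and at 4.67, 3.61 and 3.65 RPKM in 8-cell embryos. Each stage overlapped the next, and the 12 libraries had a median of 4.50 RPKM from 811 to 2456 reads. Here and below, a call needs a log2 fold change on log2(RPKM + 1) of at least 1 in size and a p in limma below 0.05 after Benjamini-Hochberg adjustment over the 4253 genes tested. That scale understates the change of low genes. Among these stages GDF3 was called in 0 of 4 comparisons, and 0 of them had an unadjusted p below 0.05. Of all genes tested, limma called 4.77% in 2-cell embryos minus oocytes, 0% in 4-cell minus 2-cell embryos, 0.682% in 8-cell minus 4-cell embryos and 11.5% in 8-cell embryos minus oocytes. The log2 fold change was 0.47 (95% interval -0.47 to 1.41, adjusted p 0.587) in 2-cell embryos minus oocytes, -0.25 (-1.19 to 0.69, adjusted p 1) in 4-cell minus 2-cell embryos, and -0.14 (-1.08 to 0.80, adjusted p 0.982) in 8-cell minus 4-cell embryos. The intervals leave room for changes in either direction at each of these steps.

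BMP4 was lower and rested on 38 to 302 reads in the same 12 libraries. It was read at 0.702, 0.615 and 0.935 RPKM in oocytes A, B and C, at 0.527, 0.970 and 1.06 RPKM in 2-cell embryos, at 0.193, 0.309 and 0.484 RPKM in 4-cell embryos and at 0.692, 0.799 and 1.05 RPKM in 8-cell embryos. The 4-cell libraries lay below every library of the stages on either side, with a mean of 0.329 ± 0.147 RPKM, against 0.854 ± 0.287 RPKM in 2-cell embryos. This dip was not called: the log2 fold change was -0.47 (95% interval -0.99 to 0.04, adjusted p 1) in 4-cell minus 2-cell embryos and 0.48 (-0.04 to 0.99, adjusted p 0.401) in 8-cell minus 4-cell embryos, by limma. At the first of these steps, limma called 0 of 4253 genes, and 161 were below 0.05 before adjustment. In 2-cell embryos minus oocytes BMP4 had a log2 fold change of 0.07 (-0.44 to 0.59, adjusted p 0.942). Set directly against oocytes, 8-cell embryos had a log2 fold change of 0.08 for both GDF3 (-0.86 to 1.02, adjusted p 0.956) and BMP4 (-0.44 to 0.59, adjusted p 0.901).

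At the 16-cell stage BMP4 was read at 8.94, 5.70 and 5.82 RPKM in libraries A, B and C, against 0.692, 0.799 and 1.05 RPKM in 8-cell embryos. All 3 libraries of 16-cell embryos lay above all 12 earlier libraries, and they held 973 to 1965 BMP4 reads. The ratio of the means was 8.07, and the log2 fold change was 2.06 (SE 0.25, 95% interval 1.55 to 2.58, adjusted p 2.1e-06 in limma). At this step 19.4% of the genes tested were called higher, so a rise as such was common. BMP4 passed the filter of 1 RPKM in 3 libraries through the 6 libraries of 16-cell embryos and morulae together with 2-cell C and 8-cell C.

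GDF3 was read at 0.628, 0.319 and 4.06 RPKM in 16-cell embryos A, B and C, against 4.67, 3.61 and 3.65 RPKM in 8-cell embryos. Libraries A and B lay below every 8-cell library, while library C lay among them. The log2 fold change was -1.16 (SE 0.45, 95% interval -2.10 to -0.22, adjusted p 0.0339 in limma), at a step where 15.9% of genes were called lower and 35.3% in all. The call was lost when 16-cell A, 16-cell B or any 8-cell library was left out (adjusted p 0.0581 to 0.187), and without 16-cell C the log2 fold change was -1.76 (adjusted p 0.00135). It was also lost with a pseudocount of 5 (log2 fold change -0.47, adjusted p 0.0878) and with no filter on low values (adjusted p 0.0810). In bulk libraries such as these, fewer cells that carry an RNA and less of it per cell cannot be told apart.

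Library C of the 16-cell embryos stood apart from A and B over all genes, and so did morula C. On the first principal component of the genes tested, where libraries up to the 8-cell stage had scores of -36.5 or lower, 16-cell C scored 7.60, against 35.8 and 40.5 for 16-cell A and B, and morula C scored 37.3, against 74.3 and 72.3 for morula A and B. GDF9, a growth factor secreted by oocytes, was at 7.05, 9.71 and 57.6 RPKM in 16-cell embryos A, B and C. In morulae A, B and C it was at 0.541, 0.647 and 11.1 RPKM. In these 6 libraries GDF3 was high only in 16-cell C, and morula C, with its high GDF9, had 0.264 RPKM of GDF3. Without 16-cell C and morula C, GDF3 had a log2 fold change of -1.76 in 16-cell minus 8-cell embryos (adjusted p 0.00169), and BMP4 one of 2.15 (adjusted p 4.04e-07). What part the oocyte transcripts of 16-cell C had in its GDF3 value was not tested.

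**Figure D2:**
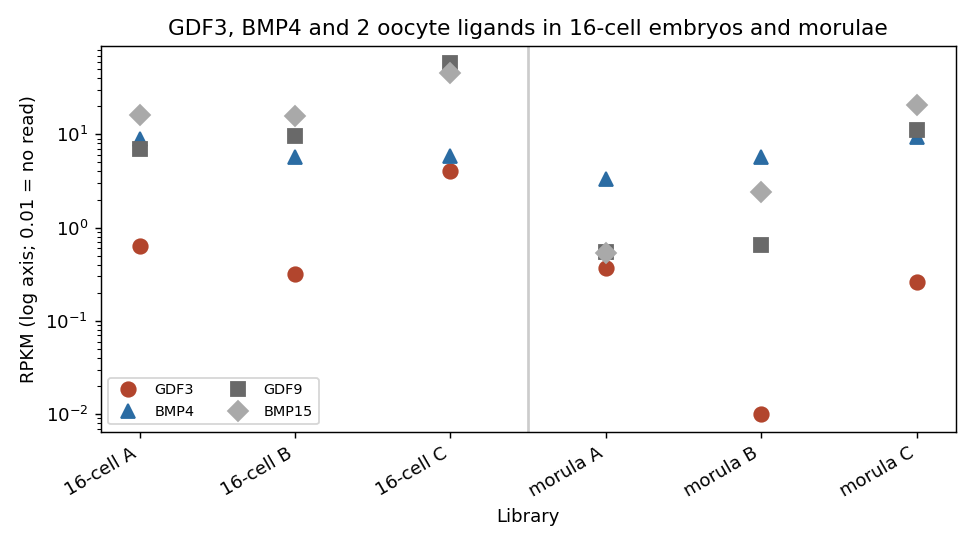
RPKM (log axis, where 0.01 stands for no read) of GDF3, BMP4 and the oocyte ligands GDF9 and BMP15 in the 6 libraries of 16-cell embryos and morulae, 1 symbol per library. BMP4 lies between 3.33 and 9.37 RPKM in every library, GDF9 and BMP15 are highest in library C of each stage, and GDF3 is at 4.06 RPKM in 16-cell C and at 0.628 RPKM or less in the other 5.

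In morulae BMP4 was read at 3.33, 5.76 and 9.37 RPKM in libraries A, B and C, against 8.94, 5.70 and 5.82 RPKM in 16-cell embryos. The 2 stages overlapped, and the log2 fold change was -0.19 (95% interval -0.71 to 0.32, adjusted p 0.608 in limma), at a step where 16.1% of genes were called. Against 8-cell embryos the morula libraries were all higher, with a ratio of means of 7.28 and a log2 fold change of 1.87 (SE 0.25, 1.35 to 2.39, adjusted p 2.75e-06).

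GDF3 had its lowest stage mean in morulae, at 0.372 and 0.264 RPKM in libraries A and C, from 127 and 99 reads, and with no read in library B. The 3 libraries lay below every 8-cell library, whose mean was 18.4 times as high, and the log2 fold change in morulae minus 8-cell embryos was -2.04 (SE 0.45, 95% interval -2.98 to -1.10, adjusted p 0.000532 in limma). In that comparison 26.9% of genes were called higher and 21.8% lower, 48.7% in all. The comparisons of 16-cell embryos and of morulae with 8-cell embryos share the 3 8-cell libraries. From the 16-cell stage to the morula GDF3 overlapped, since 16-cell B at 0.319 RPKM lay below morula A at 0.372 RPKM, and the log2 fold change of -0.88 (-1.82 to 0.06, adjusted p 0.166) was not called. With a pseudocount of 0.1 it was -2.02 and was called (adjusted p 0.0390), and without 16-cell C it was -0.28 (adjusted p 0.704).

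In blastocysts GDF3 was read at 4.08, 1.35 and 9.42 RPKM in libraries A, B and C, against 0.372, 0.01 and 0.264 RPKM in morulae. Every blastocyst library lay above every morula library, by a ratio of means of 23.0, and the log2 fold change was 2.05 (SE 0.45, 95% interval 1.11 to 2.99, adjusted p 0.00115 in limma). Of the genes tested, 3.93% were called higher in this comparison, 25.3% lower and 29.2% in all. The blastocyst libraries differed widely in GDF3, with the highest 6.98 times the lowest. After scaling by the median ratio of each library to the others, which gave factors of 0.507, 0.282 and 0.791 for blastocysts A, B and C, the highest library was 2.49 times the lowest and the scaled mean was 8.25 ± 3.56 RPKM. The median gene of those tested changed by -0.48 on the log2 scale from the morula to the blastocyst.

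BMP4 was read at 0.241, 0.132 and 0.340 RPKM in blastocysts A, B and C, from 45, 30 and 50 reads, against 3.33, 5.76 and 9.37 RPKM in morulae. No library of one stage reached those of the other, the morula mean was 25.9 times the blastocyst mean, and the log2 fold change was -2.44 (SE 0.25, 95% interval -2.96 to -1.93, adjusted p 3.88e-07 in limma). After median-ratio scaling the blastocyst mean was 0.458 ± 0.0251 RPKM and the log2 fold change -1.91. All 3 blastocyst libraries were also below the 3 oocyte libraries in RPKM. The difference from oocytes, -0.50 (-1.02 to 0.02, adjusted p 0.0793), was not called; it was called with a pseudocount of 0.1 (-1.36, adjusted p 0.00456) and on RPM, the values without the division by span (-1.09, adjusted p 0.0132), where 57.4% of genes were called. GDF3 in blastocysts minus oocytes had a log2 fold change of 0.09 (-0.85 to 1.04, adjusted p 0.872), with values of -0.44 without blastocyst C, 0.64 without blastocyst B and 0.78 after median-ratio scaling (adjusted p 0.0551), none of them called, in a comparison where 48.3% of genes were called.

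**Figure D3:**
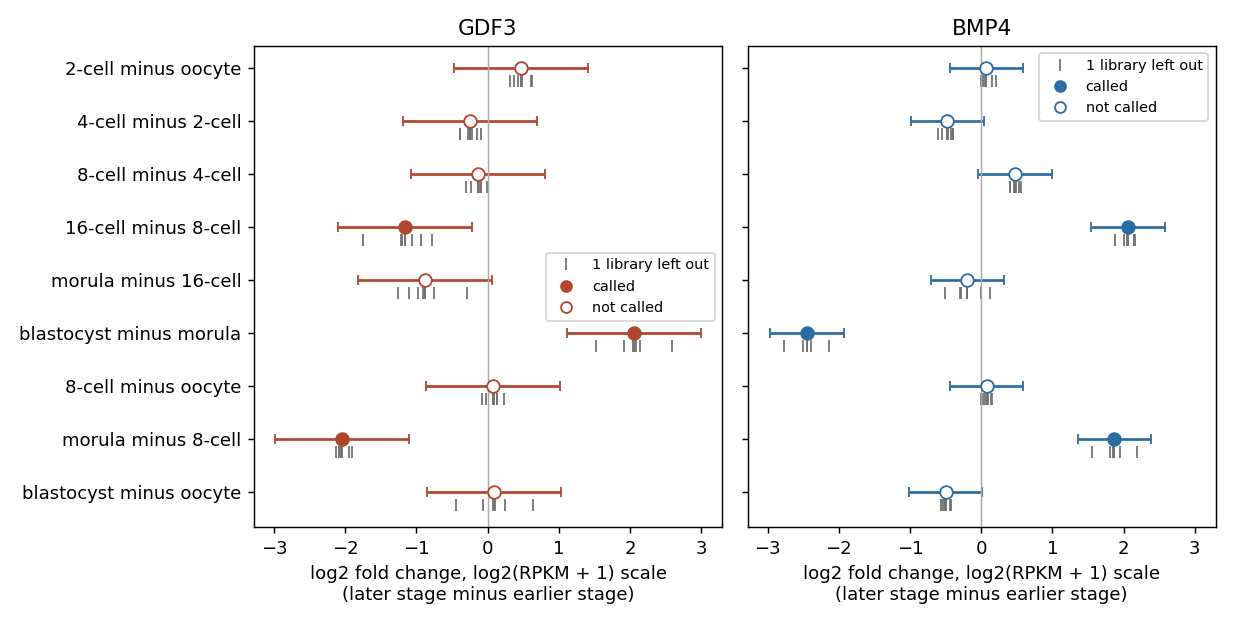
log2 fold change on the log2(RPKM + 1) scale (later stage minus earlier stage) for GDF3 (left) and BMP4 (right) in 9 stage comparisons. Circles are the values with all 21 libraries, filled where called, bars are 95% intervals, and ticks are the values with 1 library left out. The intervals of BMP4 lie clear of 0 at 16-cell minus 8-cell (1.55 to 2.58), morula minus 8-cell (1.35 to 2.39) and blastocyst minus morula (-2.96 to -1.93); that of GDF3 at blastocyst minus morula runs from 1.11 to 2.99.

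Over all stages, a moderated F test gave an adjusted p of 9.55e-09 for BMP4 and 0.000384 for GDF3, where 93.8% of genes passed. From highest to lowest mean, GDF3 ran 2-cell, blastocyst, 4-cell, 8-cell, oocyte, 16-cell and morula, and every neighbouring pair in that order overlapped. BMP4 ran 16-cell, morula, 2-cell, 8-cell, oocyte, 4-cell and blastocyst. In that order morulae and 2-cell embryos did not overlap, nor did oocytes and 4-cell embryos, while the other neighbours did. Both orders are of unscaled RPKM. After median-ratio scaling GDF3 was highest in blastocysts, at 8.25 ± 3.56 RPKM, with 2-cell embryos next at 4.38 ± 0.94 RPKM, and BMP4 was lowest in 4-cell embryos, at 0.279 ± 0.124 RPKM, with blastocysts above them at 0.458 ± 0.0251 RPKM.

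Within a library, the 2 levels could be set against each other per kilobase of span. GDF3 was higher than BMP4 in 12 of 12 libraries from the oocyte to the 8-cell stage, by 3.49 to 24.1 times, and in 3 of 3 blastocyst libraries, by 10.2 to 27.7 times. BMP4 was higher in all 6 libraries of 16-cell embryos and morulae. It exceeded GDF3 by 1.44 to 17.8 times in 16-cell embryos, where 16-cell C gave the lowest value, by 8.96 and 35.5 times in morulae A and C, and by at least 289 times in morula B, with GDF3 set to the floor of 3 reads in that library. Over the 21 libraries the Pearson correlation of the 2 genes on log2(RPKM + 1) was -0.75 and the Spearman correlation -0.46, a description of libraries that share stages and depth.

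Among the 27 TGF-beta family ligands found of 31 listed, GDF3 had rank 3 and BMP4 rank 4 by mean RPKM at every stage up to the 8-cell stage. The top ranks there belonged to GDF9, at 63.2 RPKM in oocytes and 191 RPKM in 8-cell embryos, and to BMP15, another oocyte-secreted ligand, at 43.4 and 84.5 RPKM. In blastocysts their means were 0.0527 RPKM for GDF9 and 0.0574 RPKM for BMP15, and GDF3 had rank 1 and BMP4 rank 2. BMP4 had rank 3 at the 16-cell stage and rank 2 in morulae, behind BMP15 at 7.96 RPKM, with GDF3 at rank 4 at both stages. The morula mean of BMP15 rests on library C, since BMP15 was at 0.529, 2.43 and 20.9 RPKM in morulae A, B and C, and in libraries A and B BMP4 was above it. The highest of the other 23 ligands was TGFB2 up to the 16-cell stage (0.109 to 0.526 RPKM), GDF15 in morulae (0.116 RPKM) and INHBE in blastocysts (0.0551 RPKM). RPKM here divides by the span with its introns, so these ranks depend on gene length as well as on reads. On RPM 7 of the 27 ligands, TGFB2 among them, reached 1 RPM in 3 libraries, while 4 reached 1 RPKM. Ranks on RPM were not taken and may differ. NODAL, the ligand that shares receptors with GDF3 in the mouse, had stage means of 0.01 to 0.0267 RPKM. BMP2 and BMP7, which share receptors with BMP4, had stage means of at most 0.0510 and 0.0216 RPKM.

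The wider pathway was described from 119 listed genes of TGF-beta and BMP signalling, of which 97 were found. Only 12 of these, GDF3 and BMP4 included, reached 1 RPKM in 3 libraries, where RPKM divides by the span with its introns. Of these 12, 5 were called higher in morulae than in 8-cell embryos (BAMBI, BMP4, GSC, ID4 and TGIF1) and 6 lower (BMP15, GDF3, GDF9, ID3, MSX1 and SMAD5), against 26.9% and 21.8% of all genes tested. Leaving GDF3 and BMP4 aside, 4 of 10 were higher and 5 lower. The number called in that comparison was again 11 when 16-cell C and morula C were left out. Levels were therefore also taken as RPM, the RPKM without the division by span, on which 47 of the 97 passed the same filter at 1 RPM. In 16-cell minus 8-cell embryos 7 of the 47 were called higher and 21 lower, against 15.4% and 30.7% of the 10384 genes tested. In morulae minus 8-cell embryos 8 were higher and 24 lower, against 20.4% and 36.6%. In blastocysts minus morulae 7 were higher and 15 lower, against 7.74% and 28.1%, and in 8-cell embryos minus oocytes 9 were higher and 2 lower, against 18.3% and 2.99%. The median log2 fold change of the 47 was -1.04 in morulae minus 8-cell embryos, beside -0.51 over all genes tested, and -0.45 in blastocysts minus morulae, beside -0.50. The genes that passed the filter are those with enough reads at some stage, so these counts do not speak for the 97.

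Of 9 receptors tested, 5 were called lower in morulae than in 8-cell embryos and 0 higher, against 36.6% and 20.4% of the 10384 genes tested (limma on log2(RPM + 1); all 5 had adjusted p of 0.00272 or less). The type I receptor BMPR1A was at 0.994 RPM in morulae, against 8.61 RPM in 8-cell embryos (log2 fold change -2.35, adjusted p 6.48e-05), and the type II receptor BMPR2 at 1.85 RPM, against 10.4 RPM (-2.15, adjusted p 0.000123). BMPR1B, another type I receptor for BMPs, and TGFBR1, the type I receptor for TGF-beta, had log2 fold changes of -2.80 and -2.07. ACVR1B, the type I receptor for activin and Nodal, was at 2.83 RPM, against 8.95 RPM (-1.63, adjusted p 0.00272).

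Neither activin type II receptor was called in that comparison. ACVR2A was at 3.90 RPM in morulae, against 5.37 RPM in 8-cell embryos (log2 fold change -0.41, not called), and fell to 0.429 RPM in blastocysts (-1.76, adjusted p 3.82e-05). ACVR2B had 1.17 RPM in morulae and 0.0744 RPM in 8-cell embryos (0.99, short of the size needed for a call), and 1.56 RPM in blastocysts. ACVR1, a type I receptor for BMPs, was highest in oocytes at 131 RPM and lowest in blastocysts at 8.18 RPM, where it was called lower than in morulae (log2 fold change -1.93, adjusted p 0.00186). Between the oocyte and the 8-cell stage 4 of the 9, namely ACVR2A, BMPR1A, BMPR2 and TGFBR1, were called higher and ACVR1 lower, against 18.3% and 2.99% of all genes tested. Of the co-receptors, RGMB, which binds BMP ligands, was called higher in morulae, at 12.9 RPM, against 2.72 RPM in 8-cell embryos (1.58, adjusted p 0.00175), and TGFBR3, betaglycan, lower (-1.21, adjusted p 0.0355). TDGF1, the co-receptor for Nodal and GDF3 in the mouse, was not analysed here.

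Calls among the SMAD genes went both ways. SMAD5, which carries BMP signals, had stage means of 1.82, 3.36, 3.48, 6.20, 1.41, 0.739 and 0.0251 RPKM from the oocyte to the blastocyst. In morulae it lay at 0.0975, 0.123 and 2.00 RPKM in libraries A, B and C, against 5.25, 6.23 and 7.12 RPKM in 8-cell embryos, a log2 fold change of -2.21 on log2(RPKM + 1) with no overlap. On log2(RPM + 1) SMAD2, which carries activin and Nodal signals, fell to 6.07 RPM in morulae, against 53.8 RPM in 8-cell embryos (-3.06, adjusted p 3.12e-06), and SMAD1 to 7.88 RPM, against 17.6 RPM (-1.04, adjusted p 0.0162). ZFYVE9, an anchor that presents SMAD2 and SMAD3 to the receptor, had a log2 fold change of -2.16 (adjusted p 0.000644). SMAD3 had 0.293 and 1.09 RPM and was not called. SMAD4, the partner shared by both branches, rose to 12.7 RPM in morulae, against 1.91 RPM in 8-cell embryos (2.24, adjusted p 5.88e-06), and was at 23.4 RPM in blastocysts.

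Of the inhibitors that act inside or on the membrane of the receiving cell, TGIF1 and BAMBI were called higher at the 16-cell stage, as BMP4 was. TGIF1, a nuclear repressor of SMAD2 targets, was at 14.5, 14.4 and 4.38 RPKM in 16-cell embryos A, B and C, against 0.222, 0.243 and 0.121 RPKM in 8-cell embryos (log2 fold change 3.19 on log2(RPKM + 1), no overlap). Unlike BMP4, it was not called lower in blastocysts than in morulae (-0.80, adjusted p 0.0495), and at 6.66 ± 0.63 RPKM it was called higher than in oocytes (2.74, adjusted p 4.77e-07). BAMBI, a membrane decoy that lacks a kinase domain, was at 1.49, 1.35 and 2.37 RPKM in 16-cell embryos, against 0.150, 0.163 and 0.224 RPKM in 8-cell embryos (1.20, adjusted p 0.001), and its difference in blastocysts minus morulae was not called on that scale (-0.88, adjusted p 0.0123). On RPM BAMBI was called lower in blastocysts than in morulae, as 28.1% of genes tested were. SMAD7, which blocks type I receptors, was instead highest in blastocysts, at 30.1 RPM, against 2.08 RPM in morulae (3.29 on log2(RPM + 1), adjusted p 1.2e-06). SMURF2, a ubiquitin ligase that acts on receptors and SMADs, was called lower in morulae than in 8-cell embryos (-2.12) and in blastocysts than in morulae (-1.30). NEDD4L, another ubiquitin ligase, was called lower in morulae than in 8-cell embryos (-2.55, adjusted p 1.11e-05).

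Of the secreted antagonists, none of the 10 found of 17 listed passed the filter on RPKM, and 3 passed on RPM. FST, follistatin, which binds activins and some BMPs, was at 4.65 RPM in blastocysts, against 0.694 RPM in morulae (log2 fold change 1.76, adjusted p 0.000608). The 2 stages overlapped, since FST was at 0.340 RPKM in morula B and 0.298 RPKM in blastocyst C. Morulae A and C had no FST read. SOSTDC1, a BMP antagonist, was called lower in morulae, at 0.659 RPM, against 7.80 RPM in 8-cell embryos (-2.36), and so was FSTL1, a follistatin-like secreted protein (-2.56). The BMP antagonists NOG and GREM1 had stage means of 0.01 to 0.0525 and 0.0207 to 0.379 RPKM. Of the proprotein convertases and latent binding proteins, FURIN had stage means of 0.0145 to 0.126 RPKM and PCSK6 of 0.01 to 0.0113 RPKM. PCSK5 was called higher in blastocysts, at 10.3 RPM, against 0.992 RPM in morulae (2.62, adjusted p 5.58e-06), and LTBP1, which tethers latent TGF-beta in the matrix, lower (-1.47, adjusted p 0.0478). The morula level of LTBP1 rested mostly on library C, with 0.0131, 0.0107 and 0.0416 RPKM in morulae A, B and C. In blastocysts LTBP1 was at 0.0102, 0.01 and 0.0103 RPKM. In blastocysts A, B and C PCSK5 was at 0.0321, 0.0339 and 0.0249 RPKM, the unit given for FURIN and PCSK6.

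**Figure D4:**
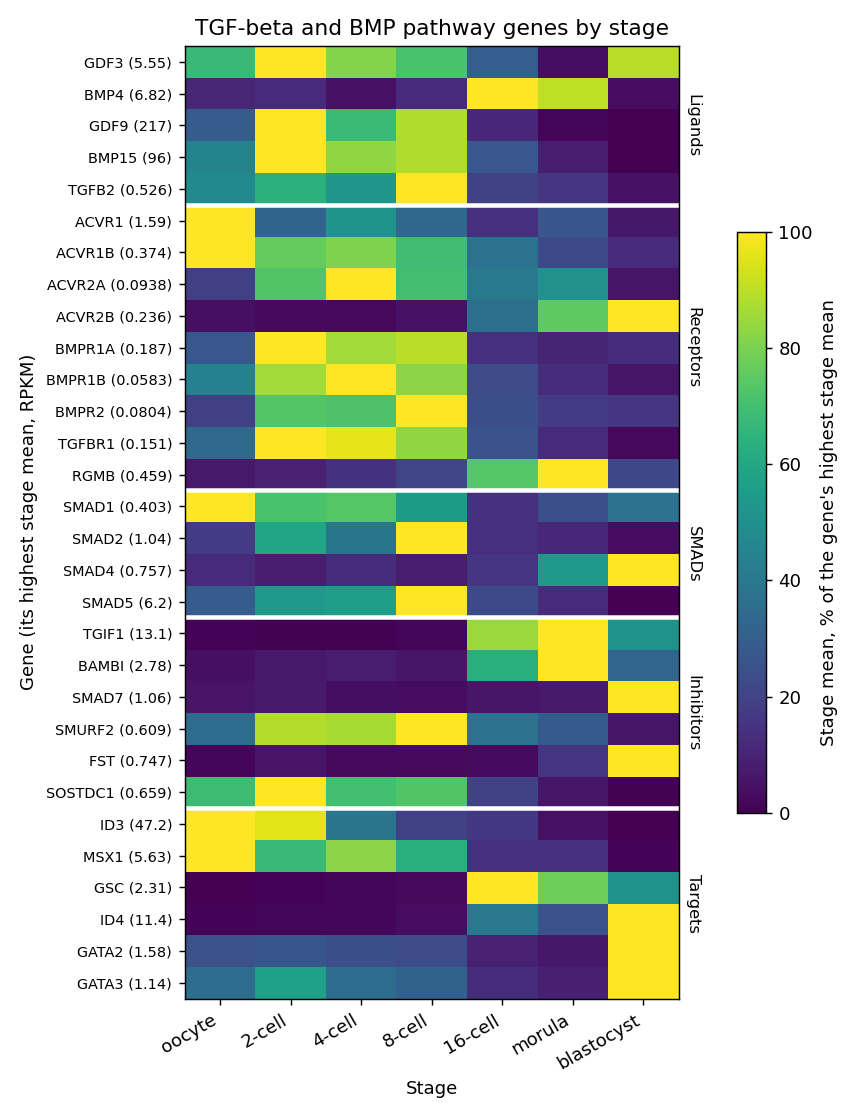
Stage means of genes of TGF-beta and BMP signalling, by role, as a percentage of each gene's highest stage mean after the added 0.01 RPKM was taken off. Rows are genes, with the highest stage mean in RPKM in brackets, and columns are stages. BMP4, TGIF1, BAMBI and GSC have their highest level at the 16-cell or morula stage, while BMPR1A, BMPR2, SMAD2 and SMAD5 are highest before it and SMAD4, SMAD7, FST and ID4 in blastocysts.

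ID genes, transcriptional targets of BMP signalling in many tissues, are given one by one. ID3 had stage means of 47.2, 45.3, 18.2, 9.12, 7.70, 2.05 and 0.0978 RPKM from the oocyte to the blastocyst, and was called lower in 8-cell embryos than in oocytes (log2 fold change -2.28, adjusted p 0.000565 in limma), in morulae than in 8-cell embryos (-1.78, adjusted p 0.000552) and in blastocysts than in morulae (-1.40, adjusted p 0.00744). ID4 was at 5.45, 4.48 and 3.86 RPKM in 16-cell embryos A, B and C, against 0.478, 0.472 and 0.242 RPKM in 8-cell embryos (2.00, adjusted p 1.8e-05). It was at 12.3, 11.1 and 10.9 RPKM in blastocysts, against 1.64, 5.95 and 0.996 RPKM in morulae (1.90, adjusted p 4.63e-05), so that ID4 was high in blastocysts, where BMP4 was low. ID1 had 0.579, 1.19 and 0.181 RPKM in blastocysts and stage means of at most 0.0837 RPKM before, and did not pass the filter.

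Other listed targets went both ways. GSC, a homeobox gene induced by Nodal and activin in early embryos, was at 2.31 ± 0.53 RPKM in 16-cell embryos, against 0.0709 ± 0.044 RPKM in 8-cell embryos (log2 fold change 1.62, adjusted p 1.87e-05). MSX1, a BMP target in limb and tooth, fell to 0.799 RPKM in morulae, against 3.58 RPKM in 8-cell embryos. GATA2 and GATA3, regulators of trophoblast genes, were higher in blastocysts, at 16.7 and 34.2 RPM, against 1.07 and 3.03 RPM in morulae (3.12 and 3.60, adjusted p 4.21e-06 and 0.000113). Both were called lower in morulae than in 8-cell embryos on RPM, as 36.6% of genes tested were. Against oocytes, GATA2 was called higher in blastocysts on RPM and GATA3 was not called.

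Blastocysts hold an inner cell mass and a trophectoderm, and the labels name no separation of these. KRT8, a keratin of the trophectoderm, was at 91.6, 160 and 91.9 RPKM in blastocysts A, B and C, against 1.36, 1.22 and 1.98 RPKM in morulae. The 6 trophectoderm markers found summed to 93.6 to 163 RPKM, against 2.11 to 3.88 RPKM, and KRT8 made up most of the blastocyst sum. Of the rest, CDX2, GATA3 and TFAP2A were higher in every blastocyst library than in every morula library. TFAP2C was lower, at 0.468, 0.0945 and 0.437 RPKM, against 1.07, 0.832 and 1.52 RPKM in morulae (log2 fold change -0.68, not called). ELF5 did not exceed 0.0114 RPKM in blastocysts. Blastocyst B, highest in KRT8, was lowest in GDF3 and in BMP4 on unscaled RPKM. After median-ratio scaling BMP4 was at 0.476, 0.469 and 0.430 RPKM in blastocysts A, B and C, and GDF3 was still lowest in B. Of the pluripotency genes, POU5F1 was at 1.79 ± 0.52 RPKM in blastocysts, against 0.906 ± 0.67 RPKM in morulae, and PRDM14 at 18.5 RPM, against 54.9 RPM (log2 fold change -1.46 on log2(RPM + 1), adjusted p 0.00437). SOX2 was highest in morulae (1.83 ± 1.4 RPKM) and NANOG in 16-cell embryos (0.874 ± 0.11 RPKM, against 0.192 ± 0.048 RPKM in 8-cell embryos). What part the mix of cell types had in the levels of GDF3 and BMP4 was not tested.

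The 7 oocyte markers summed to 0.0504 to 0.246 RPKM in blastocysts and to 154 to 231 RPKM in oocytes. Of 20 markers found for cumulus and granulosa, oviduct and uterine epithelium, stroma, blood and endothelium, 16 were under 1 RPKM in every library. Of these 16, FSHR, PAX8, PDGFRB, PTPRC and VWF did not exceed 0.0272 RPKM in any. Others of the 16 were higher: CD68 reached 0.561 RPKM in 16-cell B and 0.482 RPKM in 8-cell C. COL1A1 reached 0.282 RPKM in 2-cell B, FOXJ1 0.185 RPKM in blastocyst B and PECAM1 0.133 RPKM in blastocyst A. The other 4, TNFAIP6, STAR, DCN and LUM, reached 1 RPKM in at least 1 library, and their part in the results was not tested. Some of the markers were higher in 16-cell embryos, where BMP4 was high, than in 8-cell embryos, and others were not. TNFAIP6, a cumulus matrix gene, was at 1.86, 0.693 and 0.826 RPKM in 16-cell embryos A, B and C, against 0.122, 0.188 and 0.547 RPKM in 8-cell embryos, and had 0.0301, 0.0382 and 1.76 RPKM in morulae. COL1A2, a stromal collagen, was at 0.448, 0.255 and 0.338 RPKM in 16-cell embryos, against 0.0264, 0.0268 and 0.0376 RPKM in 8-cell embryos, with 0.0264, 0.242 and 0.189 RPKM in morulae and no read in blastocysts. LUM was lower in 16-cell embryos A, B and C, at 0.608, 0.519 and 0.754 RPKM, against 0.881, 0.869 and 1.11 RPKM in 8-cell embryos. STAR was at 0.724, 0.565 and 2.04 RPKM in 16-cell embryos, against 2.10, 1.27 and 1.43 RPKM in 8-cell embryos. DCN was at 1.25, 0.568 and 2.26 RPKM in 16-cell embryos, against 2.03, 1.66 and 1.62 RPKM in 8-cell embryos. STAR and DCN were at 4.31, 3.09 and 5.86 and at 3.37, 2.99 and 4.07 RPKM in oocytes. The 8 cumulus and granulosa markers found of 10 summed to 1.31 to 2.92 RPKM in 16-cell embryos, 0.0402 to 3.17 RPKM in morulae and 0.120 to 0.220 RPKM in blastocysts, against 1.45 to 2.22 RPKM in 8-cell embryos. The 5 stroma markers found of 6 summed to 1.32 to 3.34 RPKM in 16-cell embryos, 0.0317 to 1.94 RPKM in morulae and 0.0488 to 0.0881 RPKM in blastocysts, against 2.53 to 2.91 RPKM in 8-cell embryos.

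By correlation of log2(RPKM + 1) over the 21 libraries, among 2765 tested genes with a symbol, the gene closest to GDF3 was NME2, a nucleoside diphosphate kinase (Pearson r 0.91). It was followed by DSTN, an actin-depolymerizing factor (0.84), CLTB, a clathrin light chain (0.83), FABP3, a fatty acid binding protein (0.82), and MYL12B, a myosin light chain (0.82). NME2 was at 34.1 ± 28.2 RPKM in blastocysts, 6.95 ± 3.24 RPKM in morulae and 24.1 ± 3.49 RPKM in 8-cell embryos. The 5 genes closest to BMP4 included TMEM37 (0.96), SERINC1 (0.96), NOCT (0.95) and C21orf91 (0.94). TMEM37 was at 62.4 ± 24.5 RPKM in 16-cell embryos, against 2.20 ± 1.40 RPKM in 8-cell embryos. By Spearman correlation 2 of the 5 for GDF3 and 1 of the 5 for BMP4 were again among the closest 5, so the lists rest on the measure used.

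**Figure D5:**
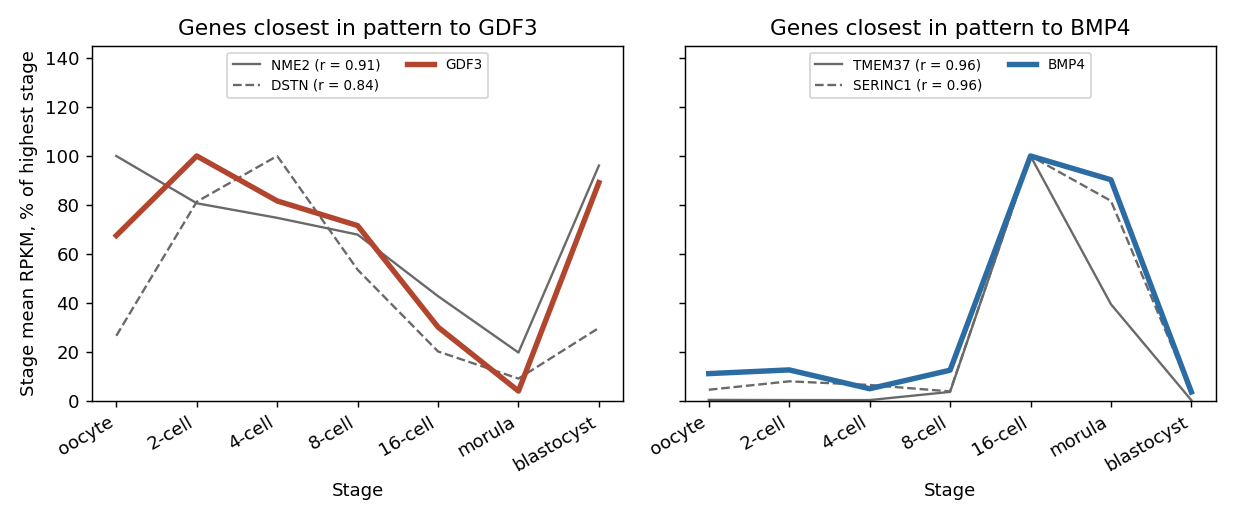
Stage mean RPKM as a percentage of the highest stage for GDF3 (left, thick line) and BMP4 (right, thick line) and for the 2 genes with the highest Pearson correlation to each over 21 libraries (grey lines, r in the key). The 2 genes near BMP4 have their highest mean at the 16-cell or morula stage and are near 0 in blastocysts, while GDF3 and the 2 genes near it have their lowest mean in morulae.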

How the data were processed

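The authors deposited 1 table of RPKM values for 19040 genes in 21 libraries. FastQC, STAR 2.5.3a and Partek are named, with no role or order, per the submitters' processing notes. The genome build, strandedness, counting rule and treatment of reads that match several genes have no entry in the sources used here, so reads from overlapping or antisense genes could not be told apart. The unit was checked on the values. After 0.01 was subtracted and the value multiplied by the span of the gene, 94.3 to 96.1% of low values in a library (up to 20 steps) were whole multiples of 1 step, within 0.05 of a step. That step gave the reads behind each value, the 8.47 M to 26.7 M reads in genes (24.4 to 42.0% of the implied total of 24.0 M to 66.6 M) and the floor of 3 reads.

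GDF3 and BMP4, the gene lists and the tests were chosen with earlier results of these data known. Genes with at least 1 RPKM in 3 libraries entered limma 3.58.1 (R 4.3.3) as log2(RPKM + 1), with a robust, trended variance prior, in 1 model of 7 stages and 21 libraries, two-sided. The design had covered counts and log values too, and its branch for RPKM was used. RPM values were made from the deposited RPKM by removing the offset and the span, and were tested in the same way. Lists were described by counts and medians with no test of the list. Genes were named by role: up to 4 per role with the highest stage mean, up to 3 called rises and 3 called falls in morula minus 8-cell and blastocyst minus morula, a set of receptors, SMADs, ID genes and antagonists named wherever found, the 5 closest genes by Pearson correlation, and the 3 nearest genes on each side. KRT8, GDF15, INHBE, BMP2, BMP7 and the markers were named after their values were seen. Some genes that the lists or these rules name are not reported here.

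Correlations of the deviations of same-letter libraries from their stage means ran from -0.41 to 0.32 over 9 comparisons. They exceeded 0.1 for every letter in 0 of the 9, so letters were not used as pairs. That rule cannot detect a single letter that deviates together. The highest correlations, 0.32 for B and 0.31 for C, were in morula minus 16-cell. Symbols were matched to RefSeq gene entries, and the sequences of GDF3 and BMP4 were not used here. Alternatives were pseudocounts of 0.1 and 5, other filters and scalings, RPM, array weights (statmod 1.5.0), a replicate block, fits of only 2 stages, and leaving out libraries. Summaries used Python 3.11.15, numpy 2.4.6, pandas 2.3.3, scipy 1.17.1 and matplotlib 3.10.9. The limma step was tested on simulated data.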

Additional observations from a re-analysis of the deposited data

How the results depend on the processing

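Of 638 values for GDF3 and BMP4 under 32 alternatives (21 leaving out 1 library each), 609 kept their direction and their side of the threshold. The cause of the other shifts was not tested, except that a pseudocount of 5 shrinks every log2 fold change and that other filters and scales test other numbers of genes. With that pseudocount GDF3 fell short of a call at -0.47 in 16-cell minus 8-cell, 0.85 in blastocyst minus morula and -0.78 in morula minus 8-cell, and BMP4 at 0.90 in morula minus 8-cell. Testing all genes, with low values left in, also ended the call of GDF3 in 16-cell minus 8-cell (-1.16, adjusted p 0.0810). A pseudocount of 0.1 gave calls at -2.02 for GDF3 in morula minus 16-cell and -1.36 for BMP4 in blastocyst minus oocyte, where RPM gave -1.09. Signs turned only for differences that were not called. For GDF3 these were 0.0029 (8-cell minus 4-cell), -0.028 (8-cell minus oocyte) and -0.023 (blastocyst minus oocyte) with array weights, and -0.14 and -0.22 (8-cell minus oocyte) with quantile normalization and median-ratio scaling. For BMP4 these 2 scalings gave -0.22 and -0.15 in 2-cell minus oocyte and -0.19 and -0.10 in 8-cell minus oocyte.

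With 1 library left out, GDF3 ranged over 0.32 to 0.62 (2-cell minus oocyte), -0.39 to -0.09 (4-cell minus 2-cell), -0.30 to -0.0012 (8-cell minus 4-cell), -1.76 to -0.79 (16-cell minus 8-cell, call lost in 5 of 21), -1.25 to -0.28 (morula minus 16-cell), 1.52 to 2.59 (blastocyst minus morula), -0.073 to 0.23 (8-cell minus oocyte), -2.13 to -1.91 (morula minus 8-cell) and -0.44 to 0.64 (blastocyst minus oocyte). BMP4 ranged over -0.0092 to 0.21, -0.61 to -0.39, 0.40 to 0.56, 1.88 to 2.16, -0.51 to 0.12, -2.76 to -2.13, -0.00091 to 0.15, 1.56 to 2.19 and -0.56 to -0.43 in the same order. The replicate block, by letter, left the log2 fold changes as they were and changed no call (adjusted p 0.0274 for GDF3 and 2.83e-06 for BMP4 in 16-cell minus 8-cell).

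Counts moved more. Genes that differed at any stage numbered 3991, and 11166 with no filter, 1786 with a filter of 5 RPKM and 9605 on RPM (3830 to 3975 with 1 library left out). Pathway genes called in 2-cell minus oocyte were 0, with 0 to 2 when a library was left out; 1 with either other pseudocount or quantile normalization, 2 with array weights, with only 2 stages or without 16-cell C and morula C, and 9 on RPM. In 16-cell minus 8-cell they were 10, 8 to 10 with a library left out, 4 with a pseudocount of 5 and 28 on RPM. In morula minus 16-cell they were 3, 0 to 4, 0 with only 2 stages and 6 on RPM. In blastocyst minus morula they were 5, 5 to 9, 10 and 2 with pseudocounts of 0.1 and 5, and 22 on RPM. In 8-cell minus oocyte they were 2, 2 to 3, 4 with quantile normalization or array weights, and 11 on RPM. In morula minus 8-cell they were 11, 9 to 11, 4 with a pseudocount of 5 and 32 on RPM. In blastocyst minus oocyte they were 9, 8 to 9, and 32 on RPM.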

Other observations

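The nearest listed genes on either side of GDF3 were measured as well. Besides these, 2 entries for small RNA families had spans that cover GDF3 and many other genes. On the lower side lay an unnamed gene, ENSCHIG00000016865, at 24.6 kb, with 342 RPKM in oocytes, 646 RPKM in morulae and 114 RPKM in blastocysts, then ENSCHIG00000013745 at 64.7 kb (0.0818 RPKM in blastocysts, 9.73 RPKM in morulae) and NANOG at 99.4 kb, whose correlation with GDF3 over the 21 libraries was -0.71. On the higher side lay APOBEC1 at 22.0 kb, never above a stage mean of 0.128 RPKM, and MFAP5 at 96.0 kb.

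BMP4 had no listed neighbour within 225 kb, apart from an entry for a small RNA family whose span covers many genes. CNIH1, at 430 kb, had 0.0981 RPKM in blastocysts and 1.11 RPKM in 8-cell embryos, and FERMT2, at 900 kb, had 0.927 RPKM in 16-cell embryos and 3.29 RPKM in 8-cell embryos, where BMP4 had 6.82 and 0.846 RPKM.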
